A study of Mus musculus with 6 samples.

Results

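The IGF2BP family, the LIN28 proteins and 5 further genes that the let-7 microRNAs restrain were followed across the 6 libraries of the series. They are Igf2bp1, Igf2bp2, Igf2bp3, Lin28a, Lin28b, Hmga1, Hmga2, Arid3a, Arid3b and Trim71. These 10 genes were taken by name from the 43629 mouse gene rows of the count table, by their known place in the let-7 circuit. No rule on counts was used, but earlier results of these data were known when the genes were listed. Of the 10, 7 had enough counts to be tested, among 13445 tested genes in all. The libraries hold poly-A RNA of M1, a mouse neuroblastoma cell line. In 3 libraries a hairpin against Igf2bp1 had been switched on (shIGF2BP1, genotype labelled as a knockdown), and in 3 a non-targeting hairpin (shNT, genotype labelled WT). Both groups received doxycycline at 4 to 6 µg/ml for 6 days. The labels name a single hairpin against Igf2bp1 and do not say whether the cells of a group came from a clone or whether replicates were separate cultures, so p-values measure the spread between these libraries, which may be technical.

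The let-7 microRNAs accumulate as cells differentiate and repress mRNAs that carry matches to their seed in the 3' UTR. LIN28A and LIN28B bind let-7 precursors and block their maturation, while let-7 in turn represses both LIN28 mRNAs. The IGF2BP proteins are fetal RNA-binding proteins that coat and stabilise mRNAs, and their own transcripts are let-7 targets. In neuroblastoma LIN28B and IGF2BP1 are known for their expression in high-risk tumours.

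Library totals ran from 25119655 to 34014482 counts in shIGF2BP1 and from 30756389 to 35373076 in shNT. Each library's log2 expression correlated with the others at a mean r of 0.960 to 0.972 across tested genes, lowest for shNT replicate 3. Of 14 markers of sympathetic neuroblastoma, 6 were tested, and 5 had 0 counts in all 6 libraries, among them Th and Dbh, which make catecholamines, and the granule protein gene Chga. The 6 tested were Hand2, Isl1, Gata2, Gata3, Mycn and Ddc, and the 14 summed to 511.5 to 540.9 CPM in shIGF2BP1 and 347 to 571 CPM in shNT. Of the 6, Ddc had an unadjusted p under 0.05, at 1.56, 0.567 and 1.24 CPM in shIGF2BP1 against 0.27, 0.117 and 0.0605 CPM in shNT, without overlap (edgeR adjusted p = 0.431). Among all tested genes 7.16% had an unadjusted edgeR p under 0.05 and 11.6% had groups that did not overlap. The labelled cell type therefore rests on part of its defining markers. Of 7 leukocyte markers 4 had 0 counts in all libraries, and their sum was 3.78 to 5.62 CPM (counts scaled to library size by TMM) in shIGF2BP1 and 7.78 to 14.8 CPM in shNT, without overlap. The sums of endothelial markers, 31.1 to 73.7 CPM in shIGF2BP1 and 37.1 to 53.8 CPM in shNT, and of glial markers, 6.13 to 13.1 CPM in shIGF2BP1 and 11.7 to 12.7 CPM in shNT, overlapped, and 3 of 4 erythroid markers had 0 counts. The part of these markers in the results was not tested.

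The sequences below show what ties the 10 genes together. The 5 let-7 microRNAs printed share the seed at bases 2 to 8, given in capitals, and are shown because their hairpins lie in the transcript rows set against Igf2bp1 in most detail among the results. The sequences are RefSeq's, on GRCm38.p6.
let-7a-5p: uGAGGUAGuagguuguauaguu
let-7b-5p: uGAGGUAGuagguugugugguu
let-7c-5p: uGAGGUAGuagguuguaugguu
let-7d-5p: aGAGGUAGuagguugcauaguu
let-7f-5p: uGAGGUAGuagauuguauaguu

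Matches to that seed were searched on the sense strand of the longest annotated 3' UTR of each gene, as the 8mer CTACCTCA, the 7mer-m8 CTACCTC not followed by A, and the 7mer-A1 TACCTCA not preceded by C. All 10 genes held at least 1 match, 38 in all, and 14 of these were 8mers. By comparison 17.3% of 11330 tested genes with a searched 3' UTR held a match, 3.75% held an 8mer and 0.662% held 3 or more matches of any kind. Since the genes were listed as let-7 targets, their matches describe the list and are not a result. Hmga2, an architectural chromatin protein gene, held 7 matches in 3014 bases of 3' UTR. Trim71, an RNA-binding ubiquitin ligase gene of stem cells, held 6 in 5512 bases, 4 of them 8mers. Igf2bp1 held 5 in 6337 bases, Lin28b 5 in 4445 bases, Arid3b 5 in 2160 bases and Arid3a 4 in 3082 bases. Igf2bp2 and Lin28a held 2 each, and Igf2bp3 and Hmga1 held 1 each. Hmga1 and Arid3b were the 2 genes without an 8mer.

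One site of 6 of the genes is given with its flanks, the match in capitals, as the mRNA strand reads on GRCm38 in the GENCODE M21 transcripts. The first 5 are 8mers and the last, of Hmga1, is a 7mer-m8.
Igf2bp1, chr11:95961767-95961796, minus strand: tgcgaagtaaaCTACCTCAaggtgtgaagt
Lin28b, chr10:45381011-45381040, minus strand: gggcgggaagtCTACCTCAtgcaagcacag
Hmga2, chr10:120364213-120364242, minus strand: acattcaatttCTACCTCAgcatcagttgg
Arid3a, chr10:79953899-79953928, plus strand: caagtttctttCTACCTCAggtcttttgat
Trim71, chr9:114512461-114512490, minus strand: ttgcctaagtcCTACCTCAgcttaaatttt
Hmga1, chr17:27563281-27563309, plus strand: ctgttcacaaaCTACCTCtggacggttgt

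**Figure D1:**
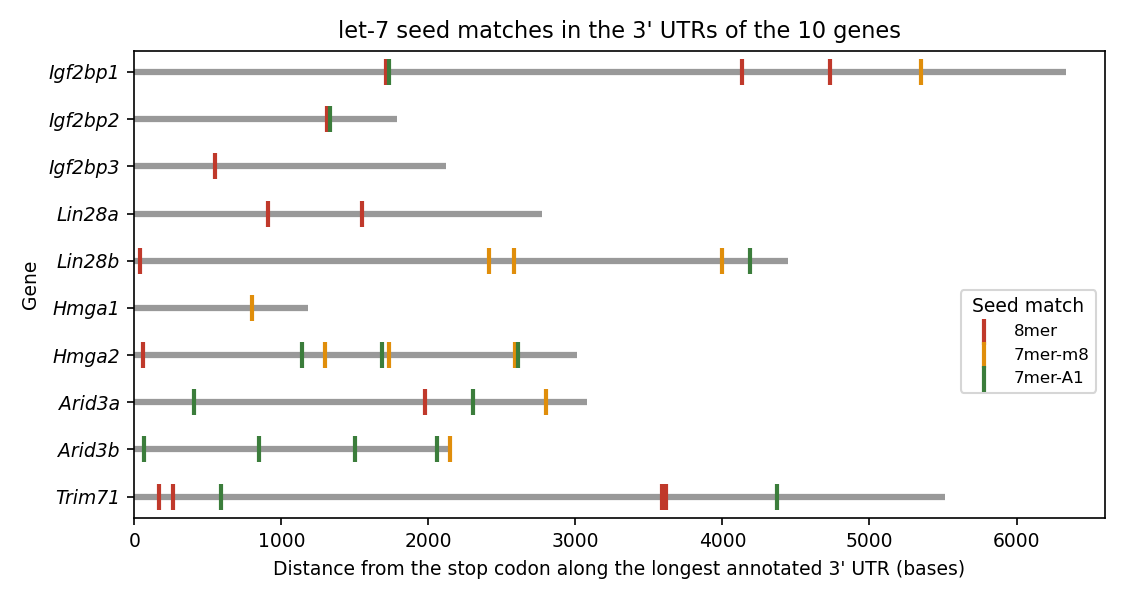
Position of each let-7 seed match (coloured tick, by match type) along the longest annotated 3' UTR (grey bar) of the 10 genes, in bases from the stop codon. Hmga2 carries 7 matches and Trim71 6, while Igf2bp3 and Hmga1 carry 1 each.

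The question of the design is what the hairpin against Igf2bp1 changes, and the targeted transcript comes first. Igf2bp1 lies on the minus strand of chromosome 11 (95957163 to 96005940, GRCm38). It had 2.56, 0.993 and 11.3 CPM in shIGF2BP1 replicates 1 to 3, from 67, 35 and 311 counts, against 1.25, 5.14 and 6.08 CPM in shNT replicates 1 to 3, from 37, 175 and 201 counts. The highest and the lowest library were both labelled with the hairpin against it, and all 3 shNT libraries lay between them. Within shIGF2BP1 the libraries spanned 11.4-fold, and within shNT 4.88-fold. edgeR put the log2 fold change at 0.25 ± 0.79 (SE; 95% interval -1.50 to 2.00; adjusted p = 0.966). A two-sided exact permutation test on log2 CPM, which cannot reach below 0.1 with 3 libraries a side, gave p = 0.9 for a difference of -0.14 between the means. Without shIGF2BP1 replicate 3 the log2 fold change was -1.24, and without shNT replicate 1 it was -0.18. The labels were not borne out at the targeted transcript, so each comparison below sets the libraries labelled shIGF2BP1 against those labelled shNT.

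The spread of Igf2bp1 within groups was itself large among genes. Its biological coefficient of variation, edgeR's estimate of the relative spread between replicates beyond counting error, was 0.66, against a trend of 0.383 for genes of its abundance, and exceeded that of 99.2% of tested genes. Igf2bp2, at a similar CPM, had a coefficient of 0.343. Lin28b had 0.38, Hmga2 0.305, Hmga1 0.257, Arid3a 0.233 and Arid3b 0.45.

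The other IGF2BP genes spread less or were barely detected. Igf2bp2, whose protein is the family member best known in adult tissue, had 5.68, 3.04 and 5.83 CPM in shIGF2BP1 against 5.19, 4.05 and 3.75 CPM in shNT. Its groups overlapped and its log2 fold change was 0.16 ± 0.38 (SE; edgeR adjusted p = 0.955). It was 0.42 without shIGF2BP1 replicate 2, the lowest library, and 0.0044 without shIGF2BP1 replicate 3, the highest, with the other libraries left out in turn giving values between these. Igf2bp3, the paralog most confined to embryo and tumour, had 7, 6 and 4 counts in shIGF2BP1 against 4, 3 and 3 in shNT, too few to be tested. Its exons share 1529 bases with Malsu1 on the opposite strand, which held 9583 counts, so these few counts are uncertain where the counting ignored strand. Nearly all counts of the family fell on Igf2bp1 and Igf2bp2.

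Of the LIN28 pair only Lin28b was detected. Lin28a had 0 counts in all 6 libraries, which allows up to 0.119, 0.0882 and 0.11 CPM in shIGF2BP1 and 0.0975, 0.0848 and 0.0899 CPM in shNT. Lin28b had 10.6, 15.3 and 20.6 CPM in shIGF2BP1 against 7.82, 23.7 and 8.35 CPM in shNT. The highest library was shNT replicate 2 and the other shNT libraries were the lowest of the 6. The log2 fold change was 0.22 ± 0.43 (SE; edgeR adjusted p = 0.943), with an interval from -0.73 to 1.18. It was 0.94 without shNT replicate 2 and between -0.04 and -0.02 without shNT replicate 1, shNT replicate 3 or shIGF2BP1 replicate 3. Trim71, known to bind mRNAs and itself a classical let-7 target in worms, had 0, 1 and 4 counts in shIGF2BP1 and 0 in each shNT library, too few to be tested.

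The HMGA genes were the most abundant members. Hmga1 encodes the chromatin protein of the family that proliferating cells commonly make. It had 97.0, 142 and 163 CPM in shIGF2BP1 against 141, 178 and 278 CPM in shNT, averaging 134 ± 33.5 CPM in shIGF2BP1 and 199 ± 71.0 CPM in shNT (SD, n = 3 each). The groups overlapped, and the log2 fold change of -0.57 ± 0.28 (SE) gave the smallest p of the 7 members, an edgeR adjusted p of 0.743 with an interval from -1.20 to 0.05. Without shNT replicate 3, the highest library, it was -0.25. The near-identical Hmga1b had 967, 1629 and 1675 counts in shIGF2BP1 against 1252, 2192 and 3247 in shNT, where Hmga1 had 2544, 5008 and 4460 counts in shIGF2BP1 against 4192, 6045 and 9201 in shNT. Reads that match both copies could be split or dropped by the counting, so the level of Hmga1 is uncertain.

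Hmga2, the fetal member and the best-studied let-7 target, had 60.4, 66.8 and 80.8 CPM in shIGF2BP1 against 43.8, 55.8 and 126 CPM in shNT. The 3 shIGF2BP1 libraries lay inside the range of shNT, with a log2 fold change of -0.12 ± 0.34 (SE; edgeR adjusted p = 0.964). Without shNT replicate 3 it was 0.48. In that same library Myc had 121 CPM, against 3.17 to 8.68 CPM in shIGF2BP1 and 6.03 and 10.9 CPM in the other shNT libraries. The part of that library's state in the Hmga1 and Hmga2 values was not tested.

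The ARID3 genes encode DNA-binding proteins of the AT-rich interaction family. Arid3a had 19, 27.1 and 18.1 CPM in shIGF2BP1 against 19.7, 20.7 and 19.6 CPM in shNT. It was the steadiest member, with only shIGF2BP1 replicate 2 set apart, and had a log2 fold change of 0.10 ± 0.24 (SE; edgeR adjusted p = 0.957). Arid3b was scarce, at 0.992, 1.28 and 0.912 CPM in shIGF2BP1 against 0.404, 0.705 and 1.42 CPM in shNT, with a log2 fold change of 0.33 ± 0.57 (SE; edgeR adjusted p = 0.94). The 3 shIGF2BP1 libraries again lay inside the shNT range. Without shNT replicate 3 the log2 fold change was 0.93, and without shNT replicate 1 it was -0.01.

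**Figure D2:**
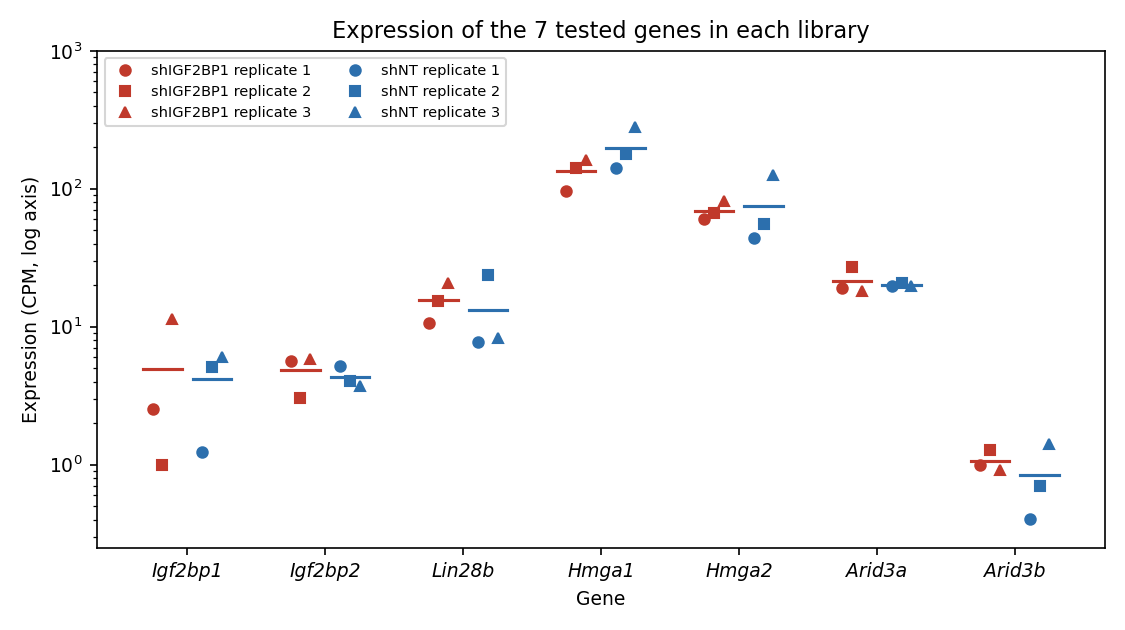
Expression in CPM (log axis) of the 7 tested genes in each library, with shIGF2BP1 (red) left of shNT (blue). Symbols mark the replicate number and bars the group mean; Igf2bp1 runs from 0.993 to 11.3 CPM, both ends in shIGF2BP1.

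None of the 7 tested members was called by edgeR at an adjusted p under 0.05, where 0.0223% of all tested genes were, and the members called numbered 0 with DESeq2 and with limma-voom as well. At an unadjusted p under 0.05 edgeR counted 0 of 7 members, against 7.16% of all tested genes. The groups stayed apart without overlap for 0 of 7 members, against 11.6% of tested genes, 6.06% with shIGF2BP1 higher and 5.59% with shIGF2BP1 lower. Of the members' log2 fold changes 5 were positive and 2 negative, and their median was 0.16, against a median of -0.01 over all tested genes. In bulk RNA, fewer cells that express a gene and less of its RNA per cell cannot be told apart.

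**Figure D3:**
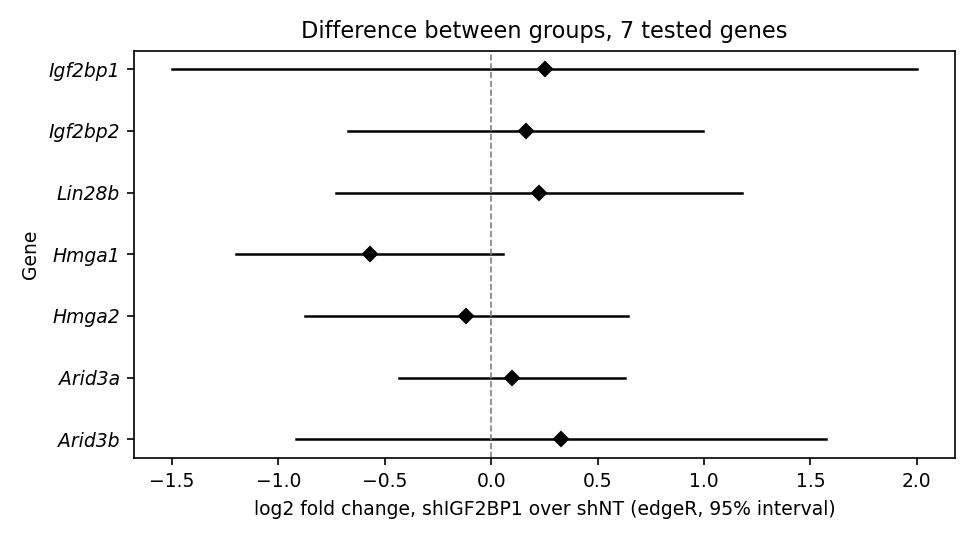
log2 fold change of shIGF2BP1 over shNT for the 7 tested genes (diamond, edgeR) with its 95% interval (line). Each interval includes 0, and that of Igf2bp1 is the widest, from -1.50 to 2.00.

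Levels between genes were compared per length, as RPKM (CPM per kilobase of annotated exon) over the 6 libraries. Hmga1 stood highest, at 78.3 ± 28.8 (SD, n = 6), followed by Hmga2 at 10.7 ± 4.29, Arid3a at 3.72 ± 0.588, Lin28b at 1.59 ± 0.733, Igf2bp2 at 0.62 ± 0.154, Igf2bp1 at 0.471 ± 0.404, and Arid3b at 0.119 ± 0.0466. The ranges of Hmga1, Hmga2, Arid3a and Lin28b over the libraries lay each wholly above that of the next gene in this order. Igf2bp1 overlapped in range with both of its neighbours, Igf2bp2 above it and Arid3b below it. Per kilobase of the longest transcript the order of the means was the same, but the ranges of Arid3a and Lin28b overlapped, with Hmga2 at 18.97 RPKM and Lin28b at 2.67 RPKM. Per length Igf2bp1 was thus the sixth of the 10 genes, while Igf2bp3, Trim71 and Lin28a closed the order with 7 counts or fewer in each library.

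Few pairs of members varied together over the 6 libraries. Over 21 pairs, the Pearson correlation of log2 CPM gave 2 pairs at an unadjusted exact permutation p under 0.05 and Spearman's rho 0. Benjamini-Hochberg adjustment over the pairs left 0 by either. With 6 libraries the exact p has a floor, and a single pair at that floor would not pass this adjustment. The 0 after adjustment therefore says little about whether members vary together. Hmga2 and Arid3b had the largest positive correlation, with r = 0.81 (exact permutation p = 0.0333, adjusted p = 0.35) and rho = 0.83 (exact permutation p = 0.0583, adjusted p = 0.613). Without shNT replicates 1 and 3, the libraries farthest from the Hmga2 median, r was 0.35 over a narrower range of Hmga2. Leaving out each library in turn gave r of 0.70 to 0.90, and deviations from the group means gave r = 0.88. Igf2bp2 and Arid3a had the largest negative one, with r = -0.85 (exact permutation p = 0.0278, adjusted p = 0.35) and rho = -0.83 (exact permutation p = 0.0583, adjusted p = 0.613). Without shIGF2BP1 replicates 2 and 3 that r was -0.61.

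The family pairs themselves showed less. Hmga1 and Hmga2 had r = 0.70 (exact permutation p = 0.131, adjusted p = 0.685) and rho = 0.54 (exact permutation p = 0.297, adjusted p = 0.911), and r fell to 0.28 without shIGF2BP1 replicate 1 and shNT replicate 3. Igf2bp1 had r = 0.57 with Hmga2 (exact permutation p = 0.231, adjusted p = 0.94) and rho = 0.54 (exact permutation p = 0.297, adjusted p = 0.911). With Lin28b it had r = 0.41 (exact permutation p = 0.403, adjusted p = 0.94) and rho = 0.31 (exact permutation p = 0.564, adjusted p = 0.911). With its paralog Igf2bp2 it had r = 0.35 (exact permutation p = 0.464, adjusted p = 0.953) and rho = 0.49 (exact permutation p = 0.356, adjusted p = 0.911). Without shIGF2BP1 replicates 2 and 3, the libraries where Igf2bp1 was lowest and highest, these 3 correlations were 0.75, 0.47 and -0.82.

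**Figure D4:**
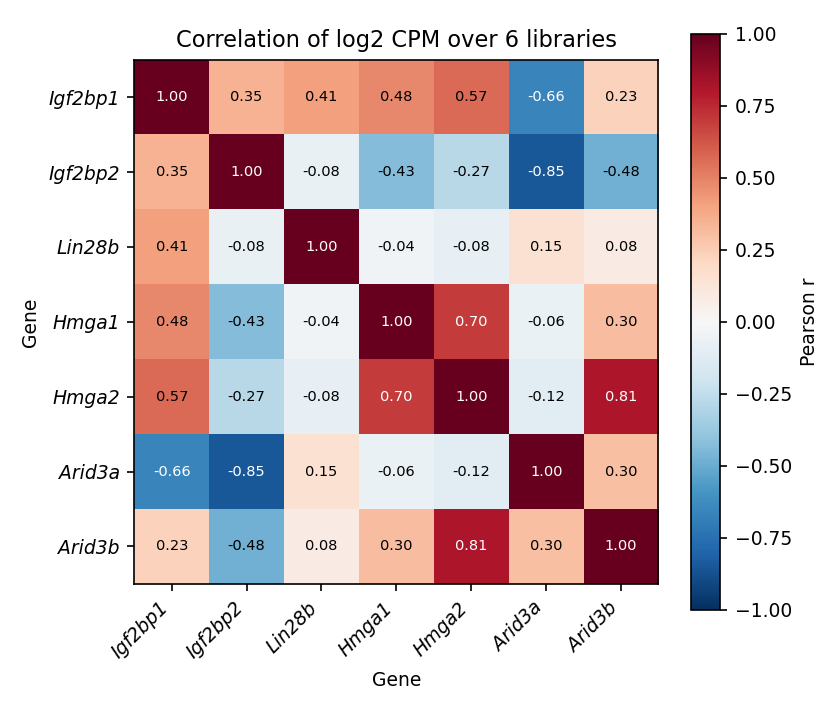
Pearson correlation of log2 CPM over the 6 libraries for each pair of the 7 tested genes, from -1 (blue) to 1 (red). The largest positive value off the diagonal is 0.81 for Hmga2 with Arid3b and the largest negative -0.85 for Igf2bp2 with Arid3a; neither passed adjustment over the 21 pairs.

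The microRNAs themselves were not measured, but poly-A reads fell on transcripts annotated across let-7 hairpins. These rows were paired with the members after their values had been seen, by annotation alone: 8 of them were tested, the hairpin rows Mirlet7b and Mirlet7c-2 and the genes 6720427I07Rik, Mir99ahg, 3110039I08Rik, Spaca6, Huwe1 and Wdr82. Their counts are of poly-A reads over the whole gene or hairpin row and not of mature let-7, and Spaca6, Huwe1 and Wdr82 are protein-coding genes. None of the 8 was called between groups, with edgeR adjusted p values of 0.782 to 0.993.

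Over the 56 pairs of 7 members and 8 rows, 5 had an unadjusted exact permutation p under 0.05 by Pearson's r and 6 by Spearman's rho. After adjustment 0 were left by either, but a single pair at the floor of the exact p would not pass adjustment over 56 pairs. Of the 5 pairs, 3 set a row opposite to Igf2bp1. The Mirlet7b hairpin row (chromosome 15, 85707319 to 85707403, plus strand) had 0.648, 3.89 and 0.292 CPM in shIGF2BP1 replicates 1 to 3, from 17, 137 and 8 counts, against 2.09, 0.323 and 0.514 CPM in shNT replicates 1 to 3, from 62, 11 and 17 counts. It was highest in shIGF2BP1 replicate 2 and shNT replicate 1, the libraries with the least Igf2bp1, and lowest in shIGF2BP1 replicate 3, the library with the most. The correlation was r = -0.93 (exact permutation p = 0.00833, adjusted p = 0.156 over 56 member and row pairs) and rho = -0.94 (exact permutation p = 0.0167, adjusted p = 0.311). Without the 2 libraries at the ends of the Igf2bp1 range, shIGF2BP1 replicates 2 and 3, r was -0.91, and for deviations from the group means it was -0.94.

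6720427I07Rik is a noncoding RNA gene annotated across the hairpins of let-7a-1, let-7f-1 and let-7d on chromosome 13. It had 5.84, 8.79 and 2.62 CPM in shIGF2BP1 against 5.73, 3.02 and 3.96 CPM in shNT, and its correlation with Igf2bp1 was r = -0.93 (exact permutation p = 0.0111, adjusted p = 0.156) and rho = -0.89 (exact permutation p = 0.0333, adjusted p = 0.311), with r = -0.81 without shIGF2BP1 replicates 2 and 3. Mir99ahg, annotated across let-7c-1 on chromosome 16, had 6.94, 13.3 and 3.83 CPM in shIGF2BP1 against 8.12, 5.11 and 6.80 CPM in shNT. Its correlation was r = -0.90 (exact permutation p = 0.00833, adjusted p = 0.156) and rho = -0.94 (exact permutation p = 0.0167, adjusted p = 0.311), and r = -0.73 without the same 2 libraries. The 3 rows lie on 3 chromosomes and shared the order of shIGF2BP1 replicate 2 first and shIGF2BP1 replicate 3 last. The other pairs of the 5 held the let-7a-2 transcript 3110039I08Rik, which had 64.5, 194 and 69.8 CPM in shIGF2BP1 against 84.7, 151 and 86.7 CPM in shNT. With Arid3a it had r = 0.89 (exact permutation p = 0.0111, adjusted p = 0.156) and rho = 0.89 (exact permutation p = 0.0333, adjusted p = 0.311), with r = 0.996 without shIGF2BP1 replicates 2 and 3. With Igf2bp2 it had r = -0.86 (exact permutation p = 0.0389, adjusted p = 0.436) and rho = -0.89 (exact permutation p = 0.0333, adjusted p = 0.311), with r = -0.64 without the same libraries. The sixth pair by rho was Hmga1 with Huwe1, at rho = 0.89 (exact permutation p = 0.0333, adjusted p = 0.311) and r = 0.75 (exact permutation p = 0.0861).

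The other rows did not follow Igf2bp1 as closely. Mirlet7c-2 had r = -0.69 (exact permutation p = 0.117, adjusted p = 0.622; rho = -0.60, exact permutation p = 0.242, adjusted p = 0.711). 3110039I08Rik had r = -0.41 (exact permutation p = 0.367; rho = -0.37, p = 0.497) and Spaca6, annotated across let-7e, r = -0.35 (exact permutation p = 0.469; rho = -0.31, p = 0.564), and both were positive without shIGF2BP1 replicates 2 and 3, at 0.46 and 0.38. Huwe1, a ubiquitin ligase gene that hosts let-7f-2 and miR-98, had r = 0.50 (exact permutation p = 0.314; rho = 0.37, p = 0.497), and Wdr82, annotated across let-7g, r = 0.57 (exact permutation p = 0.256; rho = 0.54, p = 0.297). Adjusted p values of these 4 rows were 0.711 or more by either measure. Of 13444 other tested genes, 216 (1.61%) had r of -0.9 or below with Igf2bp1, beside 3 of the 8 let-7 rows. Since the rows were paired with the members after their values had been seen, these shares cannot decide whether the rows differ from other genes.

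**Figure D5:**
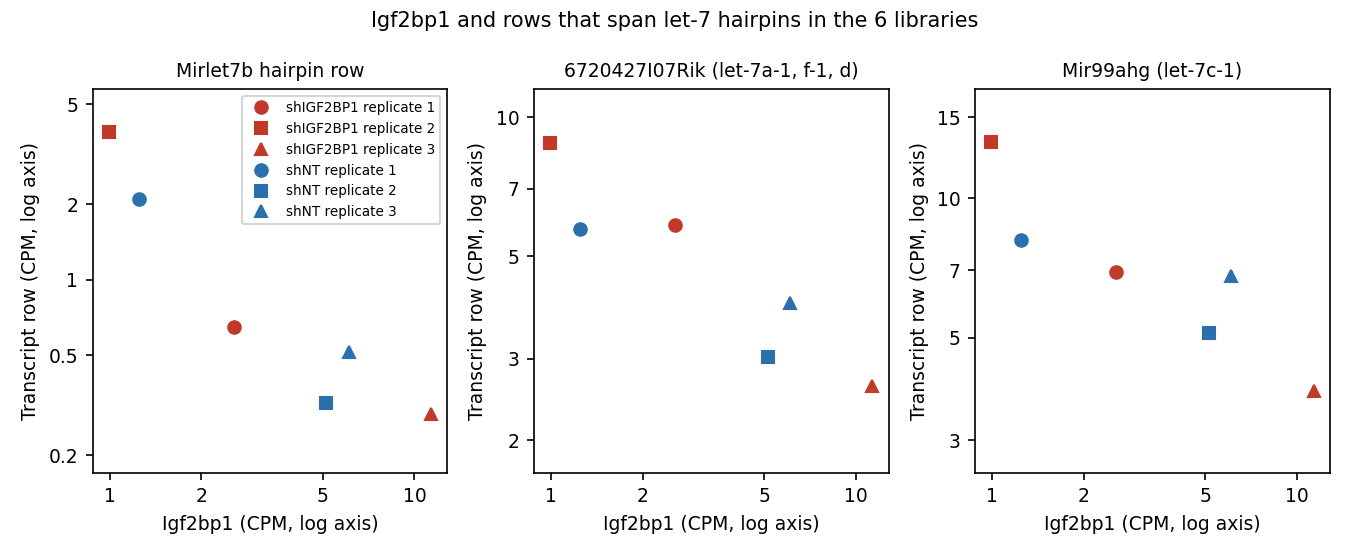
Igf2bp1 expression (horizontal, CPM, log axis) against 3 transcript rows that hold let-7 hairpins (vertical, CPM, log axis), 1 point per library, shIGF2BP1 in red and shNT in blue. In each panel the library lowest in Igf2bp1, shIGF2BP1 replicate 2, is highest in the row, and shIGF2BP1 replicate 3 is the reverse.

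The genes whose pattern was most like that of Igf2bp1 were Ptk2, Epb41l1, Rras2, Tpm1 and Ssrp1, with r from 0.987 to 0.999 over the 6 libraries, among 10480 genes with a mean of at least 5 CPM. Ptk2, the gene of focal adhesion kinase, had 263, 225 and 332 CPM in shIGF2BP1 against 233, 289 and 297 CPM in shNT. Tpm1, a tropomyosin gene of actin filaments, had 344, 184 and 885 CPM in shIGF2BP1 against 241, 499 and 489 CPM in shNT. Both were highest in shIGF2BP1 replicate 3 and lowest in shIGF2BP1 replicate 2, as Igf2bp1 was, while Ptk2 moved over a much narrower range. The summed level of 7 fibroblast markers was also highest in shIGF2BP1 replicate 3, at 578 CPM, and lowest in shIGF2BP1 replicate 2, at 290 CPM. It was 296 CPM in shIGF2BP1 replicate 1 and 462, 375 and 443 CPM in shNT replicates 1 to 3. The next highest was thus shNT replicate 1, yet at 1.25 CPM it had less Igf2bp1 than all libraries but shIGF2BP1 replicate 2. Most of the sum was Col1a1, while Lum had 0 counts throughout. Of the 7 markers 5 were tested, 0 of them called. At an unadjusted p under 0.05 edgeR counted 3 of these 5, against 7.16% of all tested genes, with log2 fold changes of 3.48 for Postn, -0.69 for Pdgfra and -0.87 for Pdgfrb. The part of the fibroblast sum in the Igf2bp1 pattern was not tested.

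Lin28b was most like 2610301B20Rik, the unnamed row ENSMUSG00000100493, Gcn1l1, Eml2 and Sel1l, with r from 0.975 to 0.982. Hmga2 was most like Usp42, Dcun1d3, Ncam1, F11r and Dhx29, with r from 0.988 to 0.996. Ncam1, the neural cell adhesion molecule, had 53.6, 66.0 and 75.2 CPM in shIGF2BP1 against 40.9, 53.0 and 103 CPM in shNT, highest as Hmga2 was in shNT replicate 3. With 6 points, 149 genes passed r = 0.9 with Igf2bp1, 56 with Lin28b and 161 with Hmga2.

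The wider let-7 programme gave no called gene. Of 30 other let-7 targets listed, 26 were tested and 0 called, with 13 positive and 13 negative log2 fold changes and a median of -0.01, the same as over all tested genes. Mycn, the neuroblastoma oncogene, averaged 44.6 ± 5.85 CPM in shIGF2BP1 and 39.2 ± 10.98 CPM in shNT (SD, n = 3 each). The phosphatase gene Cdc25a averaged 63.8 ± 12.0 CPM in shIGF2BP1 and 54.0 ± 6.56 CPM in shNT, and the cyclin gene Ccnd2 93.4 ± 21.2 CPM in shIGF2BP1 and 71.4 ± 28.9 CPM in shNT. At an unadjusted p under 0.05 edgeR counted 2 of the 26, Myc and the cell-surface protein gene Prtg, against 7.16% of all tested genes. Prtg had 19.8, 21.6 and 16.7 CPM in shIGF2BP1 against 11.9, 14.4 and 8.92 CPM in shNT (edgeR adjusted p = 0.641). Myc overlapped between groups, with 121 CPM in shNT replicate 3 and 3.17 to 10.9 CPM in the other libraries. Over all genes with a searched 3' UTR, those with 0, 1, 2, and 3 or more let-7 matches numbered 9375, 1595, 285 and 75, and had median log2 fold changes of -0.01, -0.02, -0.03 and 0.03, against -0.02 for all 11330. Their median 3' UTR lengths were 1006, 2146, 3382 and 5173 bases.

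The machinery around LIN28 was also without a call. Of 18 listed genes that process let-7 or mark it for decay, 17 were tested, with 7 positive and 10 negative log2 fold changes and a median of -0.09. At an unadjusted p under 0.05 edgeR counted 0 of the 17, against 7.16% of all tested genes. Tut4, the uridyl transferase that LIN28 recruits to let-7 precursors, averaged 117 ± 8.17 CPM in shIGF2BP1 and 99.3 ± 15.7 CPM in shNT (SD, n = 3 each), and Tut7, the related enzyme, 70.0 ± 3.17 CPM in shIGF2BP1 and 79.9 ± 12.9 CPM in shNT. Dis3l2, the exonuclease that degrades uridylated let-7 precursors, averaged 24.6 ± 3.28 CPM in shIGF2BP1 and 31.4 ± 7.37 CPM in shNT, and Trim25, an RNA-binding ubiquitin ligase, 105 ± 9.64 CPM in shIGF2BP1 and 98.4 ± 18.2 CPM in shNT. The groups did not overlap for 1 of the 17, against 11.6% of all tested genes.

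Of 16 RNA-binding partners of the IGF2BP granules, 15 were tested and 0 called. Their log2 fold changes were 12 positive and 3 negative with a median of 0.23, against 6520 positive and 6925 negative over all tested genes. edgeR gave 0 of the 15 an unadjusted p under 0.05, against 7.16% of all tested genes. Ybx1, a cold-shock protein of mRNA particles, averaged 1326 ± 374 CPM in shIGF2BP1 and 1273 ± 290.0 CPM in shNT (SD, n = 3 each). The helicase gene Dhx9 averaged 128 ± 40.4 CPM in shIGF2BP1 and 86.2 ± 45.9 CPM in shNT, Hnrnpu 120.1 ± 14.9 CPM in shIGF2BP1 and 127 ± 13.6 CPM in shNT, and Syncrip 197 ± 40.9 CPM in shIGF2BP1 and 217 ± 4.84 CPM in shNT. Of 22 mRNAs reported as bound by IGF2BP1, 19 were tested and 0 called. These had 8 positive and 11 negative log2 fold changes and a median of -0.13. edgeR gave 2 of the 19, Myc and Egfr, an unadjusted p under 0.05, against 7.16% of all tested genes. Actb, also of this list, averaged 1218 ± 495 CPM in shIGF2BP1 and 1067 ± 189 CPM in shNT. Cd44, a hyaluronan receptor gene of the list, averaged 202 ± 45.4 CPM in shIGF2BP1 and 269 ± 85.9 CPM in shNT.

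M1 cells expressed few other oncofetal genes. Of 18 listed oncofetal and imprinted genes, 8 had 0 counts in all libraries, among them H19, Dlk1, Meg3 and Sall4, and Igf2, the namesake target of the family, had 5, 15 and 12 counts in shIGF2BP1 against 3, 6 and 8 in shNT, too few to be tested. Only Afp, Tert and Piwil2 were tested and 0 were called, with 3 positive log2 fold changes. At an unadjusted p under 0.05 edgeR counted 2 of them, Afp and Piwil2, against 7.16% of all tested genes. Afp, the fetal serum protein gene, had 33.7, 16.1 and 23.1 CPM in shIGF2BP1 against 8.43, 7.37 and 4.57 CPM in shNT, without overlap between groups (edgeR adjusted p = 0.183). Tert averaged 17.2 ± 2.32 CPM in shIGF2BP1 and 14.4 ± 7.68 CPM in shNT (SD, n = 3 each). Piwil2, of the germline small-RNA pathway, had 1.07, 3.86 and 0.985 CPM in shIGF2BP1 against 0.0674, 0.822 and 0.484 CPM in shNT, also without overlap (edgeR adjusted p = 0.663). Among all tested genes 11.6% had groups that did not overlap.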

How the data were processed

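Poly-A RNA of the 6 libraries was sequenced on a NovaSeq with a stranded kit, per the labels. Per the submitters' processing notes, bcl2fastq, HISAT2 2.1.0 and HTSeq were used on GRCm38. The sources used here do not give the annotation release, strand setting or read filters. The deposited table holds raw counts per gene. Of its 43721 rows, 92 are spike-ins with 0 counts. GENCODE M21 symbols matched 42462 of 43629 gene IDs, and the other rows held 0.155% of counts. Columns were joined to samples by library name.

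After TMM scaling, edgeR 4.0.16 (R 4.3.3) compared the groups (robust quasi-likelihood F test, two-sided, filterByExpr with a minimum count of 10 and total of 15, no covariates), with Benjamini-Hochberg adjustment over 13445 genes and a threshold of 0.05. In data simulated for this comparison over 13445 genes, the test recovered 35.9%, 89.9% and 100% of genes changed 2-fold, 4-fold and 16-fold, with 6 false calls of 158. The simulated spread followed the trend for genes of each abundance, so these rates do not cover genes that spread more, such as Igf2bp1. Correlations used log2 CPM (prior count 2) and exact permutation over all pairings. 3' UTRs of at least 50 bases came from GENCODE M21. A count of 0 allows up to 3 counts; limits cover counting error only. No 2 libraries agreed within sampling noise (chi-square per gene of 47 to 251). Alternatives were RLE factors, library size only, other filters, the replicate block, leaving out each library, DESeq2 1.42.0 and limma-voom (limma 3.58.1).

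The members, lists and tests were chosen with earlier results of these data known. Named genes were the 10 members, the first 4 tested genes of each list as written (some are not reported here), and the 5 genes most correlated with Igf2bp1, Lin28b and Hmga2. Of the listed let-7 host transcripts only Mir99ahg and Huwe1 span a hairpin; the other rows that do were added after their values were seen, as were Afp's values by library and the values of Prtg, Piwil2, Ddc, Col1a1, Postn, Pdgfra and Pdgfrb and the names Egfr, H19, Dlk1, Meg3, Sall4 and Igf2.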

Additional observations from a re-analysis of the deposited data

How the results depend on the processing

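The count of called genes was 3 (0 higher, 3 lower), also under RLE scaling and under scaling by library size alone. It was 138 without a filter on low counts (54 higher, 84 lower), 1 at a mean CPM of 5 or more, 82 with DESeq2 (39 higher, 43 lower), 1 with limma-voom, and 1 to 5 when each library was left out, with 5 without shNT replicate 3. With the replicate block it was 18 (6 higher, 12 lower). Deviations of same-numbered libraries correlated at 0.19, -0.094 and 0.28, and those of differently numbered libraries at -0.37 to 0.22. With 3 libraries a group these values cannot tell whether the numbers pair the samples. Members called numbered 0 in all 13 alternatives.

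Of 88 alternative log2 fold changes of the 7 tested members, 12 had the opposite sign, with adjusted p values of 0.302 or more over all 88. The cause was not tested. For Igf2bp1 the replicate block gave -0.0465, limma-voom -0.24, and leaving out each library -1.24 to 0.76. For Hmga2 the replicate block gave 0.029, limma-voom 0.025, and leaving out each library -0.40 to 0.48. Leaving out each library, Lin28b ran from -0.037 to 0.94, Arid3a from -0.0998 to 0.20 and Arid3b from -0.0052 to 0.93. Hmga1 ran from -0.77 to -0.25 and kept its sign in all 13 alternatives. Its unadjusted edgeR p was 0.0214 without a filter on low counts and 0.0234 with the replicate block. It was 0.0216 without shNT replicate 1, 0.044 without shIGF2BP1 replicate 3 and over 0.05 in the other alternatives. Lin28b had an unadjusted edgeR p of 0.0233 without shNT replicate 2. The filter at a mean CPM of 5 removed Igf2bp1, Igf2bp2 and Arid3b. Member pairs that passed adjustment numbered 0 with a prior count of 0.5, library size only or rho. The 3 correlations of Igf2bp1 with let-7 rows, whose alternatives were chosen after seeing the data, ran from -0.96 to -0.83 when each library was left out. The median log2 fold change of genes with let-7 matches was -0.02, and -0.00255 for 8mers alone. Members under 3 counts were not detectable at this depth, which does not show that they are absent.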
